A study of Homo sapiens with 12 samples.

Results

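Keratin transcripts were followed in a pair of human cell lines from colorectal cancers, SW480 and HCT116, with or without overexpression of USP51, a ubiquitin-specific protease. The 10 keratin genes KRT5, KRT7, KRT8, KRT17, KRT18, KRT19, KRT20, KRT23, KRT80 and KRT81 were taken by name, and all 10 were found among 17818 genes with transcript rows. They were selected on the levels and ratios of these same group means, which are therefore given as a description. The groups were SW480 USP51 (genotype USP51-OE), SW480 NC (genotype NC, treated with vector), HCT116 USP51 (genotype USP51-OE) and HCT116 NC (genotype NC, treated with vector), with 3 libraries each. Cells of all groups grew in DMEM with 10% serum at 37 °C and 5% CO2. How USP51 was introduced, and whether clones were picked, is not given in the sources used here.

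Values are the authors' means of each group, because the columns of single libraries carry codes found in no label. The means carry no spread between libraries, so no test was made, and a difference between 2 means cannot be set against replicate error. Ratios are of estimated counts per total count, and the range in parentheses after a ratio is its 95% exact Clopper-Pearson interval. That interval treats each mean as the count of a single library and covers counting error only. The headers tag the groups with the letters C and E, read here as NC and USP51. USP51 stood at 25.7 TPM in the SW480 USP51 mean against 0.513 TPM in SW480 NC, and at 40.8 TPM in HCT116 USP51 against 0 TPM in HCT116 NC. Mean totals were 15506686 to 15920306 estimated counts. Of 12 colon epithelial markers, which include KRT8, KRT18, KRT19 and KRT20, 7 reached 1 TPM in each group, and EPCAM was at 381.7 to 411.3 TPM. The 7 were not the same genes, as KRT20 reached 1 TPM in HCT116 only and VIL1 in SW480 only. VIL1 stood at 12.5 TPM in SW480 USP51, 7.55 TPM in SW480 NC, 0.02 TPM in HCT116 USP51 and 0.03 TPM in HCT116 NC. CDH1 was at 9.40 TPM in SW480 NC and 33.4 TPM in HCT116 NC. CDH17, GPA33, LGALS4 and CEACAM5, on that list, stayed under 1 TPM in all 4 groups. Leukocyte and endothelial markers summed to at most 3.20 and 0.383 TPM in any group.

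Keratins are the intermediate filament proteins of epithelial cells. A filament forms from obligate pairs of an acidic type I and a neutral to basic type II keratin, and an unpaired keratin is degraded. The intestinal epithelium uses the simple keratins KRT8 with KRT18 and KRT19, and KRT20 marks its differentiated cells. KRT5 is the type II keratin of the basal layer of stratified epithelia, where it pairs with KRT14. Type II genes lie in a cluster on chromosome 12 and type I genes on chromosome 17, except KRT18, which ends the chromosome 12 cluster. Among the 10 genes, KRT5, KRT7, KRT8, KRT80 and KRT81 are type II, and KRT17, KRT18, KRT19, KRT20 and KRT23 are type I.

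KRT8 and KRT18, the core pair of simple epithelia, were the most abundant keratins of SW480. KRT8 (chromosome 12, 52897191 to 52949860, GRCh38) stood at 4756 TPM in SW480 USP51, 4411 TPM in SW480 NC, 2938 TPM in HCT116 USP51 and 2904 TPM in HCT116 NC. KRT18 (52948855 to 52952906) stood at 4989, 4727, 1618 and 1556 TPM in the same groups. By level, KRT18 was the 20th gene of the transcriptome in SW480 NC and the 99th in HCT116 NC. KRT19 (chromosome 17, 41523617 to 41528308), a small type I keratin without a tail domain, was at 1281 TPM in SW480 USP51, 1421 TPM in SW480 NC, 1325 TPM in HCT116 USP51 and 1268 TPM in HCT116 NC. Of these 3 genes KRT18 separated the lines most, with a SW480 NC to HCT116 NC count ratio of 3.06 (3.01 to 3.11). The ratio was 1.53 (1.51 to 1.55) for KRT8 and 1.13 (1.10 to 1.15) for KRT19. In HCT116 the order was KRT8, KRT18, KRT19, while in SW480 KRT18 stood first and KRT5 took the place before KRT19. RefSeq lists 52 KRT8 and 68 KRT18 pseudogenes, none of which is a row of the table, so reads of these 2 genes may be shared with copies. The annotated spans of KRT8 and KRT18 also overlap, and whether counting used strand is not given in the sources used here.

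**Figure D1:**
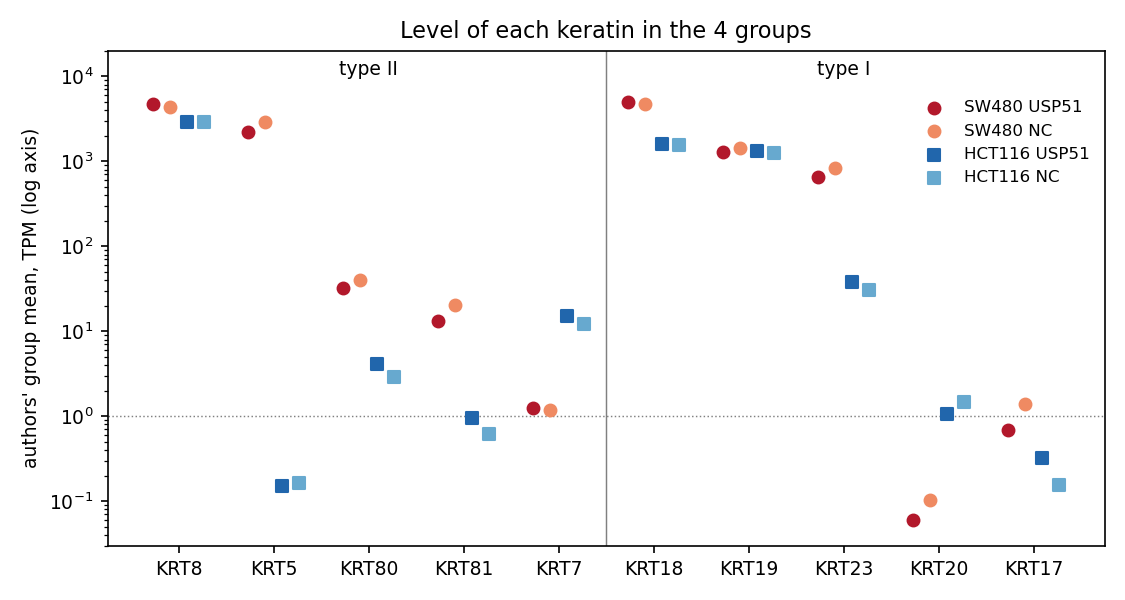
Level of each keratin as the authors' group mean in TPM on a log axis, with circles for SW480 and squares for HCT116, and USP51 to the left of NC in each line. Each point is a mean of a group with no error available, and the dotted line marks 1 TPM. KRT8, KRT18 and KRT19 are high in all 4 groups, while KRT5 stands among them in both SW480 groups and under 1 TPM in both HCT116 groups.

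KRT5 had the widest range of the 10 genes. KRT5 (chromosome 12, 52514575 to 52520394) stood at 2200 TPM in SW480 USP51, 2871 TPM in SW480 NC, 0.15 TPM in HCT116 USP51 and 0.163 TPM in HCT116 NC. Its counts were 47467 in SW480 USP51 and 59000 in SW480 NC, against 3 in HCT116 USP51 and 3.33 in HCT116 NC. It was the 54th most abundant gene of SW480 NC cells and close to absent in HCT116. The SW480 NC to HCT116 NC count ratio was 17925 (6815 to 96579), a range set by the few HCT116 counts. The usual partner KRT14 was at 0.447 TPM in SW480 USP51, 1.01 TPM in SW480 NC, 0.267 TPM in HCT116 USP51 and 0.0467 TPM in HCT116 NC. TP63, the transcription factor of basal epithelial cells, was at 0.387, 0.47, 0.80 and 0.49 TPM in these groups.

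Of the keratin genes near KRT5, KRT71 and KRT74 stood above 10 TPM in SW480 and at or near 0 in HCT116. KRT71, a type II keratin of the hair follicle's inner root sheath, lies 31 kb from KRT5 midpoint to midpoint. It stood at 14.4 TPM in SW480 USP51 and 21.6 TPM in SW480 NC and was listed at 0 in both HCT116 groups. KRT74, a further inner root sheath keratin at 52.3 kb, stood at 15.4 TPM in SW480 USP51, 17.7 TPM in SW480 NC, 0.0133 TPM in HCT116 USP51 and 0 TPM in HCT116 NC. With the HCT116 NC mean set to a floor of 3 counts, KRT71 was 143-fold and KRT74 161-fold higher in SW480 NC. From the listed 0 counts, the lower bounds of the count ratio were 116 and 130. KRT72 and KRT73, the next genes of the cluster, were under 0.2 TPM in every group. On the other side of KRT5, KRT6A and KRT6B were at 1.71 and 1.52 TPM in SW480 NC, against 0.157 and 0.05 TPM in HCT116 NC. Along the cluster, 11 of 23 keratin genes reached 1 TPM in SW480 NC and 4 of 23 in HCT116 NC. On chromosome 17 it was 11 of 23 in SW480 NC and 7 of 23 in HCT116 NC. With USP51 it was 10 of 23 in SW480 and 4 of 23 in HCT116 on chromosome 12. On chromosome 17 the order turned, with 6 of 23 in SW480 USP51 and 8 of 23 in HCT116 USP51. There KRT14, KRT17, KRT31, KRT37 and KRT38 reached 1 TPM in SW480 NC only, at 1.01 to 1.39 TPM. Taking SW480 NC and HCT116 NC together, 24 of the 46 keratin genes reached 1 TPM in at least 1 of them. Over the whole transcriptome 13033 of 17818 genes did so. The share of all genes in each single group was not computed, so the counts per group have no background here.

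The bases before the annotated starts of KRT5, KRT71 and KRT74 are shown because these 3 neighbours were detected in SW480 and at or near 0 in HCT116. That of KRT20 is shown as a member with low levels in both lines. Each sequence is the 250 bases upstream of the RefSeq start (GRCh38.p14, minus strand), read 5′ to 3′ toward the gene. The spans are chr12:52520395-52520644 for KRT5, chr12:52553146-52553395 for KRT71, chr12:52573844-52574093 for KRT74 and chr17:40885243-40885492 for KRT20. Capitals mark the motif TATAAA, the motif ATAAAA and the motif GCCNNNGGC on either strand.
KRT5: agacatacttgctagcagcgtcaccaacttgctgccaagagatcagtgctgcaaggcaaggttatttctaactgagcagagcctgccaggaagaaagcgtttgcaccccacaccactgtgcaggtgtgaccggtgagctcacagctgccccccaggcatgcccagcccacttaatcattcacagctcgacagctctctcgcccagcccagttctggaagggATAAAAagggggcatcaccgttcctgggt
KRT71: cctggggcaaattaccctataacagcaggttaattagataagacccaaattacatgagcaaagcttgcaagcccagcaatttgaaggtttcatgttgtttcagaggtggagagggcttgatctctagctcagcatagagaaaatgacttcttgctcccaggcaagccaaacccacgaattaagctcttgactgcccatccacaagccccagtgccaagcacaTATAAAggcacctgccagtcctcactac
KRT74: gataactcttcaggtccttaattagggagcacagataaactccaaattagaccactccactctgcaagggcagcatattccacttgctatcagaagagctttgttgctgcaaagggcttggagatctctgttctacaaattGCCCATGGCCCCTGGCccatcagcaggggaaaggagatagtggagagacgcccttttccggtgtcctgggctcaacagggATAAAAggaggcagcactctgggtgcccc
KRT20: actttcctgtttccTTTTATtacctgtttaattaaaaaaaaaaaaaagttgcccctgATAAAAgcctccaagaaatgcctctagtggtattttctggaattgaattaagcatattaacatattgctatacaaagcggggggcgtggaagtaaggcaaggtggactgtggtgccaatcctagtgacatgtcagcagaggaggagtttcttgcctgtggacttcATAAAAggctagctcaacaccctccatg
An A/T-rich run of the TATA-box kind began 28 or 29 bases before each start, as ATAAAA in KRT5, KRT74 and KRT20 and as TATAAA in KRT71. Over the same 250 bases of 35116 RefSeq promoters, 14.8% hold ATAAAA and 10.7% TATAAA, 2 motifs that overlap where TATAAAA occurs. These shares count a hit anywhere in the window on either strand. The share with such a word 28 or 29 bases before the start was not computed. The AP-2 motif GCCNNNGGC, in 19.8% of promoters, occurred in an overlapping pair in KRT74 alone of these 4. The AP-1 motif TGANTCA (6.57% of promoters) and the SP1 motif GGGCGG (42.6%) were in none of the 4 windows. Both TATA-like words were searched after the sequences had been read. Entries were available for 3 of the 10 genes, KRT5, KRT8 and KRT20, and that of KRT8 lies at the start of a minor transcript and is not printed.

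**Figure D2:**
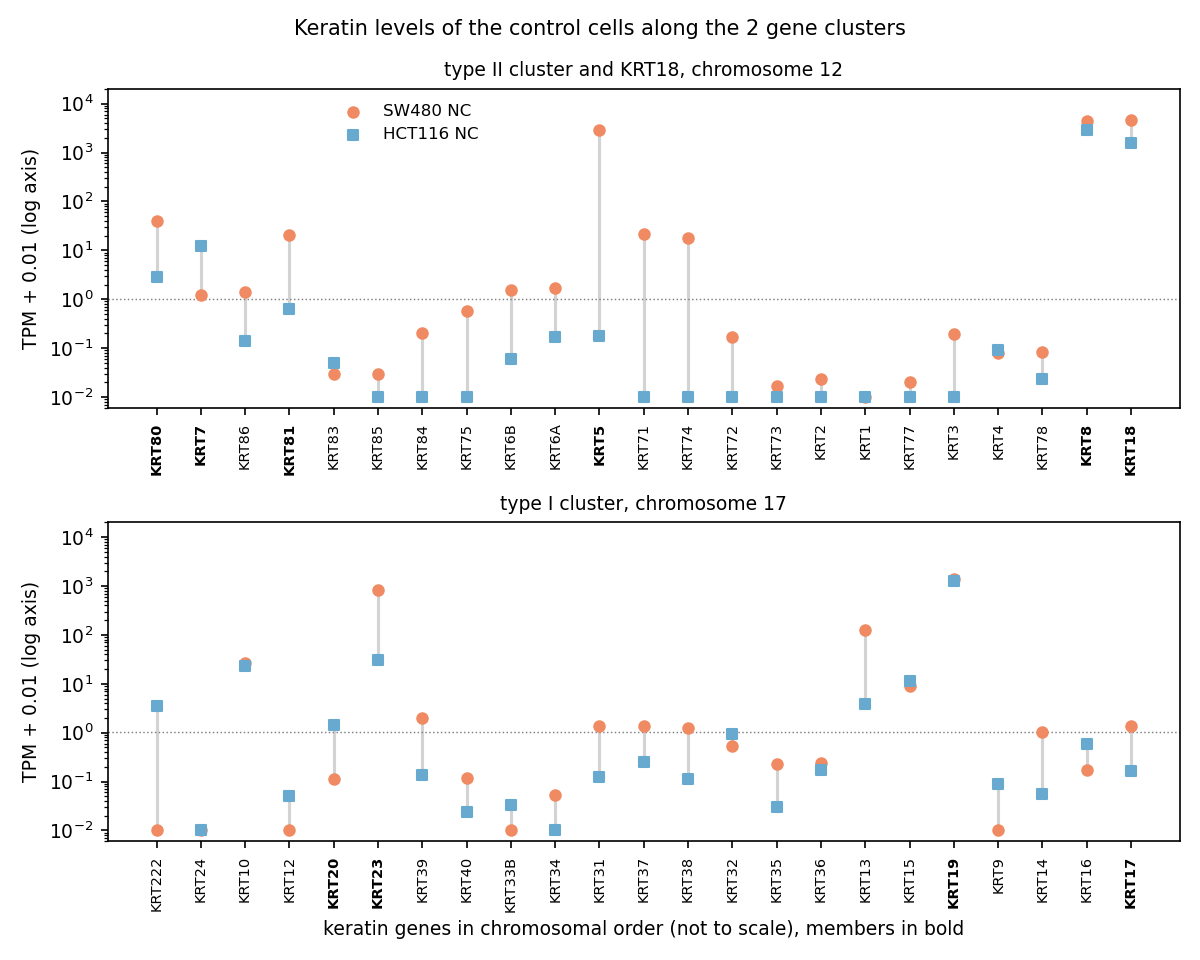
Levels in control cells (authors' means, TPM + 0.01 on a log axis) of all keratin genes in the table, in chromosomal order along chromosome 12 (top) and chromosome 17 (bottom), with SW480 NC as circles and HCT116 NC as squares, and the 10 genes of the account in bold. KRT5, KRT71 and KRT74 stand above 10 TPM in SW480 NC and below 1 TPM in HCT116 NC, while KRT8, KRT18 and KRT19 are high in both.

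KRT23, KRT80 and KRT81 were likewise higher in SW480. KRT23 (chromosome 17, 40922700 to 40937646), a type I keratin known to be induced by histone deacetylase inhibitors, stood at 652.1 TPM in SW480 USP51, 836.7 TPM in SW480 NC, 37.6 TPM in HCT116 USP51 and 30.9 TPM in HCT116 NC. The SW480 NC to HCT116 NC count ratio was 28.5 (26.04 to 31.2). KRT80 (chromosome 12, 52168996 to 52192014), a type II keratin of many epithelia, stood at 32.3, 40.3, 4.13 and 2.89 TPM in the same order of groups, a line ratio of 14.1 (11.6 to 17.2). KRT81 (52285913 to 52291534), a hair keratin, stood at 13.1 TPM in SW480 USP51, 20.4 TPM in SW480 NC, 0.953 TPM in HCT116 USP51 and 0.61 TPM in HCT116 NC. Its line ratio was 33.5 (17.9 to 65.7), from 353 counts in SW480 NC and 10.7 in HCT116 NC. KRT81 lies inside the annotated span of KRT86, a close copy at 1.38 TPM in SW480 NC and 0.13 TPM in HCT116 NC, so its reads could be split between them.

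KRT7 and KRT20 were higher in HCT116. KRT7 (52233243 to 52255853), a type II keratin of ducts that normal colon lacks, stood at 1.25 TPM in SW480 USP51, 1.20 TPM in SW480 NC, 15.1 TPM in HCT116 USP51 and 12.02 TPM in HCT116 NC. The SW480 NC to HCT116 NC ratio was 0.0924 (0.0527 to 0.157). In SW480 most of KRT7 was assigned to a predicted transcript, XM_017019294.1, with 94.4% of its TPM in SW480 USP51 and 62.7% in SW480 NC. The curated NM_005556.4 had a SW480 NC to HCT116 NC ratio of 0.0332 (0.00978 to 0.0726), and in SW480 it had 0 counts with USP51 and 5.46 in NC cells. KRT20, the keratin of differentiated colon epithelium (chromosome 17, 40875889 to 40885242), was low everywhere, at 0.06 TPM in SW480 USP51, 0.103 TPM in SW480 NC, 1.08 TPM in HCT116 USP51 and 1.45 TPM in HCT116 NC. It had 1.67 counts in SW480 NC and 23.3 in HCT116 NC, a ratio of 0.0723 (0.0101 to 0.356). KRT17 (41619442 to 41624575), a keratin of basal and injured epithelium, stood at 0.687, 1.39, 0.32 and 0.153 TPM in SW480 USP51, SW480 NC, HCT116 USP51 and HCT116 NC. Its close copies KRT14 and KRT16 were also at or under about 1 TPM, so reads may have passed between them. All 10 genes reached 1 TPM in SW480 NC or HCT116 NC, and 6 of them were at least 2-fold higher in SW480 NC and 2 at least 2-fold lower on log2(TPM + 1). KRT5, KRT17, KRT81 and KRT20 reached 1 TPM only in the line where each is high. Of the 6 genes measured in both lines 5 were higher in SW480 NC and 1 lower, where 46.7% of all genes were higher. The calls of KRT17 and KRT20 depend on the unit, with log2 ratios of 1.05 and -1.15 in TPM and 0.81 and -0.88 in FPKM, and KRT17 was also under 2-fold (0.93 to 0.97) with every CPM scaling. Over all 13033 genes so measured, 13.4% were at least 2-fold higher and 14.7% at least 2-fold lower. At 1.5-fold KRT8 joined the higher ones, making 7 higher and 2 lower, against 22.6% and 27% of all genes. Counting intervals lay above 1 for 8 and below 1 for 2 of the 10, against 38.8% and 45.1% of all genes.

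Summed by type, the keratins were close to balanced in each group. The type II genes of the 10 summed to 7003 TPM in SW480 USP51, 7344 TPM in SW480 NC, 2958 TPM in HCT116 USP51 and 2919 TPM in HCT116 NC. The type I genes summed to 6923, 6986, 2983 and 2857 TPM in these groups. The type II to type I ratio of sums was therefore 1.01 in SW480 USP51, 1.05 in SW480 NC, 0.992 in HCT116 USP51 and 1.02 in HCT116 NC. With all 46 keratin genes of the table in place of the 10, the ratios were 1.001, 1.03, 0.978 and 1.01. The composition behind these sums differed between the lines. In HCT116 NC, KRT8 alone (2904 TPM) stood against KRT18 and KRT19 together, a ratio of 1.03, while KRT8 to KRT18 alone was 1.87. In SW480 NC, KRT8 to KRT18 was 0.933, and without KRT5 the type II to type I ratio of the members was 0.640. KRT5 made up 20.03% of the summed level of the 10 genes in SW480 NC and 0.00283% in HCT116 NC. The 10 genes took 1.39% of all TPM in SW480 USP51, 1.43% in SW480 NC, 0.594% in HCT116 USP51 and 0.578% in HCT116 NC. TPM is a relative measure per transcript length, and a level in a cell population does not tell fewer expressing cells from less RNA per cell.

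**Figure D3:**
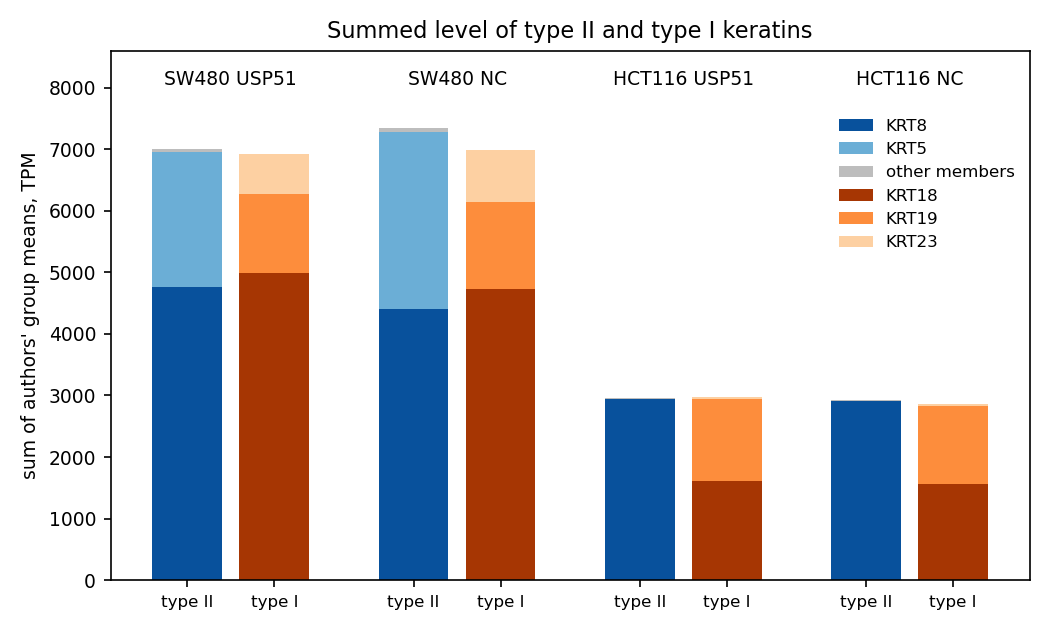
Stacked sums of the authors' mean TPM of the type II genes (blue, left bar) and the type I genes (orange, right bar) in each group, with the remaining genes of the 10 in grey. The bars start at 0 and carry no error, since each value is a group mean. The pair of bars reaches 7003 and 6923 TPM in SW480 USP51 and 2919 and 2857 TPM in HCT116 NC, with KRT5 a large part of the blue bar in SW480 and not visible in HCT116.

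With USP51 in SW480, KRT8 and KRT18 were slightly higher and KRT5, KRT19, KRT23, KRT80 and KRT81 lower than in NC cells. The largest difference of these was that of KRT81, with 238 counts in SW480 USP51 against 353 in SW480 NC and a ratio of 0.662 (0.559 to 0.782). KRT5 had a ratio of 0.790 (0.780 to 0.799) and KRT23 of 0.794 (0.774 to 0.814). For KRT80 the ratio was 0.828 (0.768 to 0.893) and for KRT19 0.929 (0.909 to 0.9496). KRT8 and KRT18 had ratios of 1.11 (1.10 to 1.12) and 1.09 (1.08 to 1.10). KRT17 had 9.33 counts in SW480 USP51 and 18 in SW480 NC, and its interval of 0.194 to 1.15 included 1, as did that of KRT7 (0.459 to 2.10). KRT20 was at or under 3 counts in both means and gets no ratio.

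The share of each keratin in the sum of the 10 shifted accordingly in SW480. KRT5 made up 15.8% of it in SW480 USP51 against 20.03% in SW480 NC, while KRT8 made up 34.2% against 30.8% and KRT18 35.8% against 33.0%. None of the 9 genes that reached 1 TPM in either group differed by 2-fold on log2(TPM + 1), where 0.0739% of all 12175 genes were 2-fold higher and 0.123% lower. At 1.5-fold, KRT81 alone was lower, and none was higher, with 0.887% of all genes lower and 0.534% higher at that size. That call ends in FPKM and with every CPM scaling, where the log2 ratio of KRT81 was -0.57 to -0.55, against -0.60 in TPM. Counting intervals lay above 1 for 2 and below 1 for 5 of the 9, against 13.6% and 14.2% of all genes. Such intervals are narrow for abundant genes, and keratins are abundant. Over the 8 genes that reached 1 TPM in both SW480 groups the median log2 ratio was -0.23, with 3 higher and 5 lower. Over all genes it was -0.04, and 61.1% were lower. KRT17 entered the 9 through SW480 NC alone, and with KRT17 the median was -0.31.

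**Figure D4:**
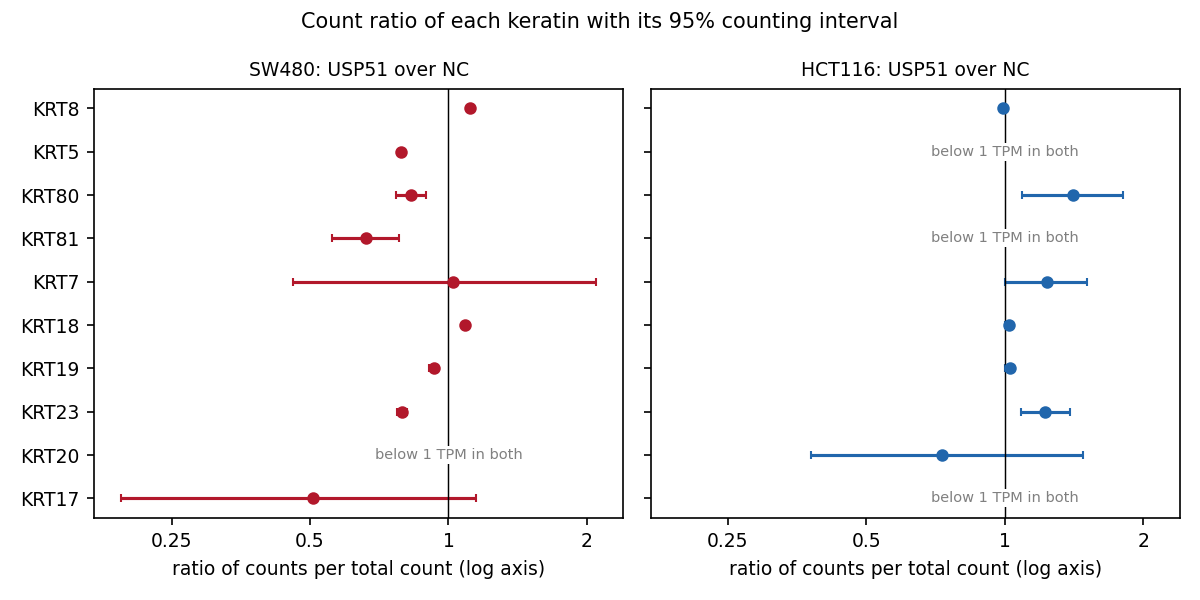
Ratio of estimated counts per total count, USP51 over NC, on a log axis for SW480 (left) and HCT116 (right). Bars are 95% exact counting intervals that hold no spread between replicates, and genes under 1 TPM in both groups of a line are written as such. KRT5, KRT23, KRT80 and KRT81 lie left of 1 in SW480, and KRT23 and KRT80 lie right of 1 in HCT116.

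In HCT116 with USP51, KRT80 and KRT23 were above their NC values, KRT8, KRT18 and KRT19 close to them, and KRT20 below. KRT80 had the largest ratio, 1.40 (1.09 to 1.81), from 151 counts in HCT116 USP51 against 110 in HCT116 NC. KRT23 had 597 counts against 497 and a ratio of 1.22 (1.09 to 1.38). KRT7 had 207 counts against 172, and its interval just included 1 (ratio 1.23, 0.998 to 1.51). KRT18 and KRT19 had ratios of 1.02 (1.0001 to 1.04) and 1.03 (1.002 to 1.05), and the interval of KRT8 included 1 (0.993, 0.980 to 1.01). In TPM, KRT8 was 2938 in HCT116 USP51 and 2904 in HCT116 NC, a log2 ratio of 0.02 that was -0.01 in FPKM and -0.04 with TMM scaling factors, so no direction can be given for it. KRT20 had 16.7 counts in HCT116 USP51 and 23.3 in HCT116 NC, with a ratio of 0.729 (0.378 to 1.48). KRT5, KRT17 and KRT81 were under 1 TPM in both groups. None of the 7 measured genes differed by 2-fold, where 0.258% of all 12393 genes were higher and 0.0242% lower. None differed by 1.5-fold either, where 1.96% of all genes were higher and 0.145% lower. Intervals lay above 1 for 4 of the 7 and below 1 for none, against 17.1% and 11.7% of all genes. The intervals of KRT18 and KRT19 barely cleared 1, and their log2 ratios were 0.06 in TPM but 0.00 and 0.01 with TMM scaling factors, so their direction rests on the scaling. The median log2 ratio was 0.06, beside 0.04 over all genes, of which 60.8% were higher.

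The 2 lines were set side by side as the difference of their USP51 log2 ratios, HCT116 minus SW480, for the 6 genes measured in both. It was 0.71 for KRT80, 0.63 for KRT23, 0.27 for KRT7, 0.21 for KRT19, -0.02 for KRT18 and -0.09 for KRT8. With curated transcripts alone that of KRT7 was 0.80, above 0.73 for KRT80 and 0.64 for KRT23. None of the 6 reached 1, as 0.591% of 11332 genes did upward and 0.0618% downward. Over all transcripts KRT80 and KRT23 exceeded 0.5, a size chosen after the values were seen, as did 6.12% of all genes. The median over all genes was 0.08. Whether these differences exceed the spread between libraries was not tested. The 3 genes with the most similar pattern to KRT80 over the 4 means, by Euclidean distance of centred log2(TPM + 1) among 9196 genes, were PLTP (distance 0.06), SHH (0.15) and COL16A1 (0.15). PLTP, the phospholipid transfer protein gene, stood at 31.5 TPM in SW480 USP51, 37.2 TPM in SW480 NC, 3.75 TPM in HCT116 USP51 and 2.69 TPM in HCT116 NC. A likeness over 4 points describes these means only. The comparison of the lines and those of USP51 share the NC means.

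Of the other keratins, 36 of 45 listed genes were in the table, and 15 of the 36 reached 1 TPM in any group. KRT13, a type I keratin of non-cornified stratified epithelia on chromosome 17 (41500981 to 41505612), was the highest of them in SW480, and KRT10 in HCT116. It stood at 71.4 TPM in SW480 USP51, 126.0 TPM in SW480 NC, 3.16 TPM in HCT116 USP51 and 3.82 TPM in HCT116 NC. The SW480 USP51 to NC count ratio was 0.583 (0.542 to 0.629), and the SW480 NC to HCT116 NC ratio was 33.3 (25.5 to 43.7). KRT71 also had a lower value in SW480 USP51, with 297 counts against 424 in SW480 NC and a ratio of 0.687 (0.591 to 0.799). For KRT74 the ratio was 0.899, and its interval of 0.788 to 1.03 included 1. KRT10, the type I keratin of the spinous epidermis, varied little, at 24.2, 26.2, 21.6 and 23.3 TPM in SW480 USP51, SW480 NC, HCT116 USP51 and HCT116 NC. KRT15, a basal type I keratin, stood at 7.07, 8.80, 11.6 and 11.6 TPM in the same order.

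KRT222, a keratin-like gene, was present in HCT116, at 3.62 TPM in HCT116 USP51 and 3.43 TPM in HCT116 NC, against 0.0133 TPM in SW480 USP51 and 0 TPM in SW480 NC. Of the other keratins 13 reached 1 TPM in SW480, 5 of them in NC cells alone (KRT6A, KRT14, KRT31, KRT37 and KRT38). Of the 8 that reached it in both SW480 groups, 7 were lower and 1 was higher with USP51, with a median log2 ratio of -0.23. Over all genes 61.1% were lower and the median was -0.04. In HCT116 4 did so in both groups, of which 1 was higher and 3 lower, with a median of -0.05. There 60.8% of all genes were higher and the median was 0.04. The hair keratins KRT31 and KRT37 had 7.67 and 7 counts in SW480 USP51 against 18.7 and 20.7 in SW480 NC.

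Transcript rows were examined for the members that have several. KRT8 was read almost wholly as a single transcript, NM_002273.4, which held 98.4% of its TPM in SW480 USP51, 98.3% in SW480 NC, 99.5% in HCT116 USP51 and 99.2% in HCT116 NC. A second KRT8 transcript, NM_001256282.2, had 161 counts in HCT116 USP51 against 336 in HCT116 NC, a ratio of 0.487 (0.403 to 0.592). In SW480 it had 1234 counts in USP51 cells against 1151 in NC cells, a ratio of 1.05 (0.970 to 1.14). KRT80 divided between 2 curated transcripts. Of these, NM_001081492.2 held 21.2% of KRT80 in HCT116 USP51 against 8.65% in HCT116 NC, and 30.7% in SW480 USP51 against 31.5% in SW480 NC. Its counts in HCT116 were 32.1 with USP51 and 9.58 in NC cells, a ratio of 3.41 (1.57 to 7.45), whereas the other, NM_182507.3, had a ratio of 1.22 (0.924 to 1.62). In SW480 the ratios of these KRT80 transcripts were 0.807 and 0.821. KRT23 also divided between 2 curated transcripts, and the main one, NM_015515.5, had ratios of 0.777 (0.755 to 0.799) in SW480 and 1.29 (1.12 to 1.496) in HCT116. The other, NM_001282433.2, had ratios of 0.848 (0.806 to 0.892) in SW480 and 1.08 (0.850 to 1.37) in HCT116, where the interval included 1. Transcripts of a gene share most of their sequence, so their counts are estimates whose error is larger than the counting interval. These transcripts were named after their values were seen.

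Vimentin, the type III filament protein of mesenchymal cells, was likewise far higher in SW480. VIM stood at 731.5 TPM in SW480 USP51, 732.5 TPM in SW480 NC, 2.28 TPM in HCT116 USP51 and 1.58 TPM in HCT116 NC. NES, the filament gene nestin, was at 22.5, 21.0, 13.2 and 7.72 TPM in that order, and its USP51 to NC ratio in HCT116 was 1.67 (1.48 to 1.89). The nuclear lamin LMNA stood at 361.8 TPM in SW480 USP51 against 431.4 TPM in SW480 NC, and at 304.9 TPM in HCT116 USP51 against 306.4 TPM in HCT116 NC. Of the 7 other filament genes that reached 1 TPM in both SW480 groups, 3 were higher and 4 lower with USP51 (median log2 ratio -0.002). Of all genes 38.8% were higher there. A further filament gene passed through SW480 USP51 alone. In HCT116 5 of 8 were higher (median 0.25), a share near the 60.8% of all genes that were higher.

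Genes of proteins that link or organise keratins were followed as RNA, in a list of 15. In SW480 9 of the 13 genes that reached 1 TPM in both groups were lower with USP51 and 4 higher (median log2 ratio -0.05). Over all genes 61.1% were lower and the median was -0.04. In HCT116 10 of 13 such genes were higher and 3 lower (median 0.15), beside 60.8% of all genes higher and a median of 0.04. A further gene passed through SW480 NC alone, and another through HCT116 USP51 alone. None differed by 1.5-fold in SW480. In HCT116, TRIM29 did, at 2.03 TPM in HCT116 USP51 against 0.873 TPM in HCT116 NC, a ratio of 2.07 (1.23 to 3.48), and it passed 1 TPM only with USP51. Plakoglobin, JUP, stood at 248.6 TPM in HCT116 USP51 against 206.0 TPM in HCT116 NC, a ratio of 1.18 (1.15 to 1.22). Periplakin, PPL, stood at 24.4 TPM in HCT116 USP51 against 18.7 TPM in HCT116 NC. TRIM29, a protein reported to organise keratin filaments, was in control cells at 158.9 TPM in SW480 NC and 0.873 TPM in HCT116 NC. Desmoplakin, DSP, which ties keratin filaments to desmosomes, was at 60.1 TPM in SW480 NC and 58.3 TPM in HCT116 NC.

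Of 16 regulators linked to epithelial keratins, all transcription factors but the splicing regulator ESRP1, 10 reached 1 TPM in both SW480 NC and HCT116 NC. ESRP1 was one of these 10, at 23.3 TPM in SW480 NC and 101.2 TPM in HCT116 NC. It is also counted in the USP51 comparisons of this list. Of these 10, 7 were lower and 3 higher in SW480 NC, with a median log2 ratio of -0.44, beside 53.3% of all genes lower and a median of -0.08. A further 4 passed through HCT116 alone. GRHL2, a regulator of epithelial genes, was at 0 TPM in both SW480 groups, against 14.7 TPM in HCT116 USP51 and 15.1 TPM in HCT116 NC. CDX2, the intestinal homeobox factor, stood at 25.1 TPM in SW480 USP51, 29.1 TPM in SW480 NC, 10.4 TPM in HCT116 USP51 and 10.7 TPM in HCT116 NC. With USP51, 3 of 10 measured regulators were higher and 7 lower in SW480 (median -0.11), where 61.1% of all genes were lower. In HCT116 7 were higher and 7 lower (median 0.00), where 60.8% of all genes were higher. Among regulators of at least 10 TPM, KLF4 had the largest difference, at 35.1 TPM in HCT116 USP51 against 51.7 TPM in HCT116 NC. Its ratio was 0.664 (0.612 to 0.722).

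Of 11 genes of stratified epithelium, S100A2 and SFN reached 1 TPM in SW480 NC, and 6 did so in HCT116 NC. Both genes measured in the 2 lines were higher in SW480 NC, where 46.7% of all genes were, and the other 4 passed through HCT116 alone. For SFN the SW480 NC to HCT116 NC count ratio was only 1.05, and its interval of 0.996 to 1.10 included 1. S100A2, a calcium-binding protein of basal keratinocytes, was at 239.3 TPM in SW480 NC and 32.5 TPM in HCT116 NC, while CSTA, cystatin A, was at 0.277 and 10.2 TPM in these groups. SFN, the epithelial protein 14-3-3 sigma, stood at 395.2 TPM in SW480 USP51 against 304.7 TPM in SW480 NC, and at 237.9 TPM in HCT116 USP51 against 293.1 TPM in HCT116 NC. Of 6 keratinocyte markers in the table, KRT10 reached 10 TPM in both lines, and KRT1 was at 0 in all groups but SW480 USP51 (0.0133 TPM). Fibroblast markers summed to 7.97 TPM in SW480 USP51, 10.4 TPM in SW480 NC, 20.9 TPM in HCT116 USP51 and 14.8 TPM in HCT116 NC. ACTA2 and COL1A1 alone of 9 reached 1 TPM, and their part in the keratin values was not tested.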

How the data were processed

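RNA came from TRIzol extracts, per the labels' protocols, with 3 libraries in each of 4 groups. The submitters' processing notes name TopHat, DESeq 1.32.0 and hg38. Their roles and the counting tool are not stated there. The deposited file lists 84345 RefSeq transcripts with estimated counts, TPM and FPKM. The authors averaged the estimated counts, which are not divided by depth, over each group. The authors' TPM and FPKM values are scaled to transcript length and depth, and were averaged likewise. A further 36 columns of single libraries match no label and were not used, so the planned edgeR quasi-likelihood tests were not made.

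Transcripts were summed per gene, and 17672 of 17818 genes matched a symbol in RefSeq GRCh38.p14, whose coordinates are printed. Log2((TPM + 1) / (TPM + 1)) was taken where either group reached 1 TPM, a scale that understates differences of low genes. Sizes of 2-fold and 1.5-fold are rules of size, not tests. Intervals used scipy 1.17.1 on means rounded to whole numbers, and cover counting error only, as does the floor of 3 counts. Scaling factors came from edgeR 4.0.16 in R 4.3.3. The count ratio and its interval were tested on simulated counts, with changes planted in well-counted genes and no spread between replicates. The other steps were not tested in this way.

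The members and lists were chosen with earlier results of these data known. Named genes are all 10 members, other keratins of at least 1 TPM (up to the 10 highest), and in each further list up to 4 genes per comparison with the largest log2 ratios at 10 TPM or more. Genes with a role beside KRT5 (KRT6A, KRT6B, KRT14, KRT72, KRT73, TP63), KRT31, KRT37, KRT86, DSP and the markers under 1 TPM were named after their values were seen.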

Additional observations from a re-analysis of the deposited data

How the results depend on the processing

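No paired analysis was possible because the group means carry no replicate numbers, and leaving out replicates, the replicate block and DESeq2 were not run for the same reason. Each value of a single keratin was recomputed in FPKM, with a pseudocount of 0.1, without the filter, in CPM with no factors or with TMM, RLE or upper-quartile factors, with curated transcripts alone and, chosen after seeing the data, with a minimum of 20 counts. Of 284 such values, 64 moved beyond the counting interval and none of the 2-fold differences changed sign. Dropping the filter and the 20-count minimum change only which genes are included, so values under them could not move. The same holds for curated transcripts alone where a gene has no other transcript. Such values are counted in the 284. The log2 ratio of KRT8 in HCT116 ran from -0.04 to 0.02 over all settings, and that of KRT7 in SW480 was -0.47 with curated transcripts alone, against 0.03.

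In FPKM, 5 keratins were at least 2-fold higher and 1 lower in SW480 NC than in HCT116 NC, against 6 and 2 in TPM. The higher count was also 5 in each CPM setting and with the 20-count minimum. In SW480, 1 keratin was lower with USP51 under the 1.5-fold rule. Counts over all genes moved too. Under the 1.5-fold rule, 65 genes were higher and 108 lower with USP51 in SW480, 243 higher and 18 lower in HCT116, and 2951 higher and 3522 lower between NC cells. With a pseudocount of 0.1, 29 were higher and 45 lower in SW480, and 117 higher and 10 lower in HCT116. Curated transcripts alone gave 14 higher and 24 lower in SW480 and 13 lower in HCT116. FPKM gave 8 lower in SW480 and 20 higher in HCT116. The type II to type I ratio stayed within 0.05 of its value in FPKM and with curated transcripts alone, but neither setting could move it much. Within a library FPKM and TPM differ by a common factor, and curated transcripts held nearly all of the summed TPM.

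Depth limits KRT17, KRT20, KRT7 in SW480, and KRT5 and KRT81 in HCT116, which rest on fewer than 25 estimated counts in each mean concerned.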
